A study of Mus musculus with 2 samples.

Results

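The mouse genes of the main histone-modifying enzymes were followed on 1-colour (Cy3) Agilent arrays hybridised with RNA of osteoclasts, the multinucleated cells that resorb bone. Members were all genes named Kdm, Kmt, Hdac, Sirt or Kat with a digit, or Setd, Ezh, Ehmt or Suv39h, that had a probe matched to a RefSeq accession on both arrays, leaving out Kdm5c, Kdm5d and Kdm6a. The rule used names and no measured value, but it was set with earlier results of these data known. It gave 63 genes on 92 probes, of 20654 named genes in all, and 60 of the 63 were well above background on both arrays, against 13479 of all genes. The study has 1 wild type and 1 Dnmt3a knockout array, both of female mice on a C57BL/6 background. For both, bone marrow cells were grown with M-CSF, and RANKL, the signal for osteoclast formation, was added with M-CSF to the adherent macrophage precursors. Which allele was deleted and in which cells, and whether animals were pooled, was not stated in the labels used. Neither genotype has a replicate, so differences between genotypes could not be tested.

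Histone-modifying enzymes set and remove chemical marks on the histone proteins around which DNA is wrapped. Writers add methyl groups (Kmt, Setd, Ezh, Ehmt and Suv39h proteins) or acetyl groups (Kat proteins) to lysines, and erasers remove them (Kdm demethylases, Hdac deacetylases and the NAD-dependent sirtuins). Names such as H3K9 give the histone and the lysine. Acetylation and H3K4 methylation go with active genes, whereas methylation of H3K9 or H3K27 goes with silenced ones. Dnmt3a, the de novo DNA methyltransferase deleted here, is itself guided by histone marks: it binds H3 tails that lack H3K4 methylation and recognises methylated H3K36. In osteoclast precursors Kdm6b is known to remove H3K27 methylation at Nfatc1 under RANKL, and Hdac7 is known to hold back osteoclast formation.

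The comparison asks how expression of these enzymes differs between a wild type and a Dnmt3a knockout osteoclast culture. Signals are the scanner software's processed intensities. Differences are on the log2 scale, knockout minus wild type, after each array was divided by its 75th percentile (584 wild type, 572 knockout). Each difference has a scanner error, computed from the software's error for the spots compared, which leaves out variation between cultures and mice. Over the measured members this error ran from 0.20 to 0.25 with a median of 0.20, so for most it is a nearly fixed cut. For the Dnmt3a probe the signal was 7042 in wild type and 1822 in the knockout, a difference of -1.92 (scanner error 0.20). On both arrays 59305 spots could be read, of which 31272 and 35398 were well above background, and none was saturated. All directions are relative to the bulk of genes: with 8 spike-in probes as the scale (0.30 to 0.72 for single ones), every value would be 0.53 lower and the median over measured genes would be -0.52 in place of 0.01.

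Of the 60 measured enzymes, 2 differed between the arrays by at least 1.5-fold. Hdac7 was 1.83-fold and Ehmt1, a writer of H3K9 methylation, 1.85-fold higher on the knockout array, though a further Ehmt1 probe did not show this. No member was 1.5-fold lower, and none reached 2-fold in either direction. The 2 members at least 1.5-fold higher are 3.33% of the 60, beside 5.82% of all measured genes, and the 0 members at least 1.5-fold lower stand beside 4.69%. For 2-fold the shares over all measured genes were 0.824% higher and 0.727% lower. These shares of members lie near or below those of all genes. Over the 60 members the median difference was 0.05 with an SD of 0.28, beside 0.01 and 0.37 over all measured genes. Of the members 53 (88.3%) lay within 0.4 of 0, and of all measured genes 77.9% did, a contrast that is smaller between genes of like level (88.1% of the brighter members and 83.0% of the brighter genes, those at or above the median level).

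**Figure D1:**
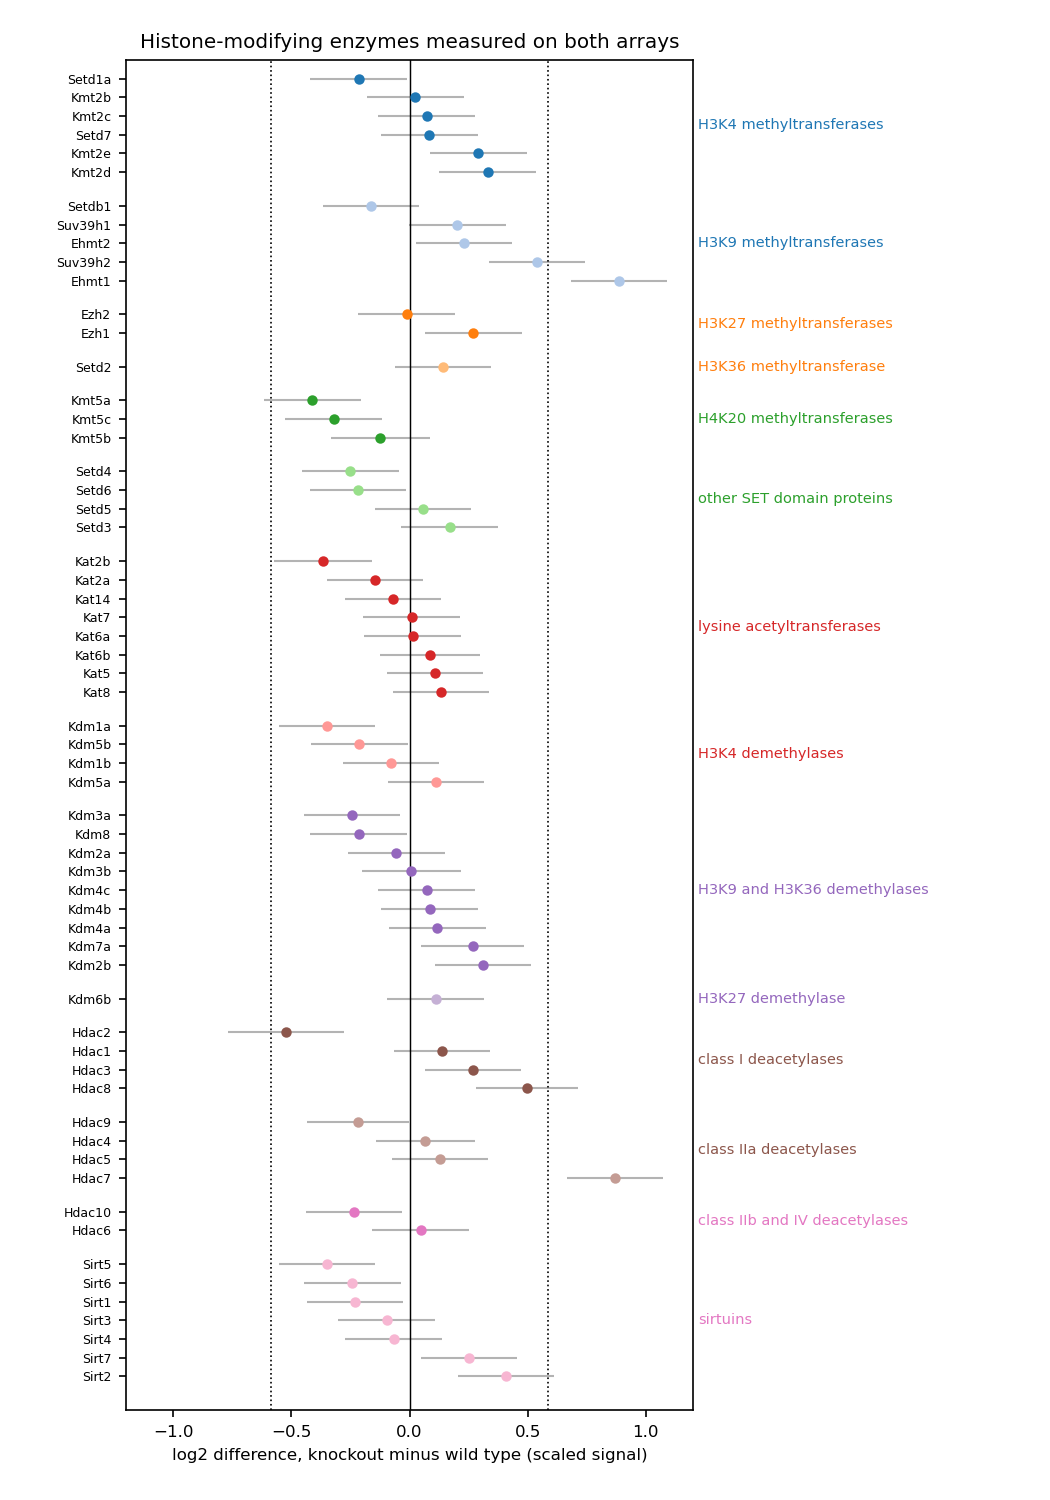
Log2 difference between the knockout and the wild type array for the 60 members measured on both, grouped by role; points are single arrays' differences, bars the scanner error, dotted lines 1.5-fold. Hdac7 and Ehmt1 are the 2 members past the right dotted line, and none is past the left one.

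Most members were brightly measured. Of the 60, 42 lay at or above the median level of all measured genes. Among these the same 2 members (4.76%) were at least 1.5-fold higher, beside 4.79% of all genes at that level, and 0 were as much lower, beside 2.4%. The SD of the difference was 0.29 over the 42 and 0.30 over all genes at that level. By sign, 35 of the 60 members (58.3%) were above 0, beside 51.9% of all measured genes. The difference was within the scanner error for 31 members (51.7%), beside 55% of all measured genes. The 29 genes grouped as writers (median 0.06) and the 31 measured genes grouped as erasers (median 0.05) had nearly the same median, with 18 and 17 members above 0.

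**Figure D2:**
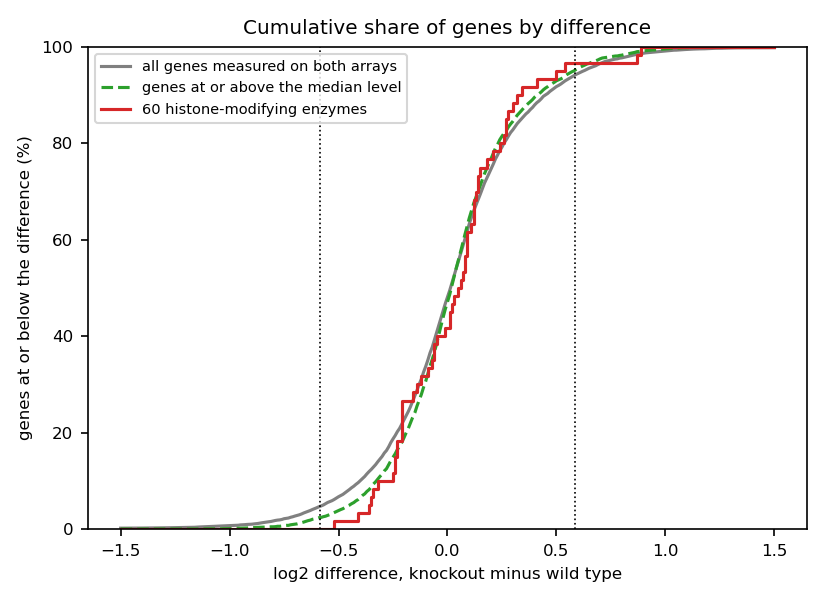
Share of genes at or below each log2 difference for the 60 members, all genes measured on both arrays and genes at or above the median level; dotted lines mark 1.5-fold. The members' curve starts at -0.52 (Hdac2), inside the left dotted line, and ends at 0.89 (Ehmt1).

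Hdac7 belongs to the class IIa deacetylases, which have little catalytic activity of their own and repress genes by bringing corepressors to factors such as Mef2. Its probe gave 6149 in wild type and 11003 in the knockout, a difference of 0.87 (scanner error 0.20). It has 1 probe here, in the middle of the array (row 247), so no further probe tests it. It stayed positive in all 11 alternative processings, from 0.34 with spike-in scaling to 0.87. The other class IIa genes were closer to 0. Hdac5, which shuttles between nucleus and cytoplasm, gave 22727 and 24353 (0.13), Hdac4 gave 238 and 244 (0.07), and Hdac9 gave 170 and 144 (-0.22, scanner error 0.22). Both Hdac4 and Hdac5 lay within the scanner error.

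As Dnmt3a methylates cytosines before guanines (CG pairs), the stretches before the Hdac7 transcription starts are shown with each CG in capitals. RefSeq (GRCm38.p6) lists 4 starts, all on the minus strand. Given here are the 250 bases before 3 of them, 5′ to 3′, because they differ in CG content. The remaining start lies close to the second and had 21 CG pairs in its 250 bases.
Hdac7, chr15:97844503-97844752, minus strand: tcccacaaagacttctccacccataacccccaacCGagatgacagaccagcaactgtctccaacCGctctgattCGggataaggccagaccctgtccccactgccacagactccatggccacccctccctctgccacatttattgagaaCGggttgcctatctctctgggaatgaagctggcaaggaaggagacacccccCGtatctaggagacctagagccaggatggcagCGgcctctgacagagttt
Hdac7, chr15:97831496-97831745, minus strand: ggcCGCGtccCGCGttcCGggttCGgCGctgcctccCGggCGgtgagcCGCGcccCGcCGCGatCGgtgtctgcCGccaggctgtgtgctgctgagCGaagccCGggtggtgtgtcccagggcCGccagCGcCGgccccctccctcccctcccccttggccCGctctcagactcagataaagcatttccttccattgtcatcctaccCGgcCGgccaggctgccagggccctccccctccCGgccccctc
Hdac7, chr15:97814864-97815113, minus strand: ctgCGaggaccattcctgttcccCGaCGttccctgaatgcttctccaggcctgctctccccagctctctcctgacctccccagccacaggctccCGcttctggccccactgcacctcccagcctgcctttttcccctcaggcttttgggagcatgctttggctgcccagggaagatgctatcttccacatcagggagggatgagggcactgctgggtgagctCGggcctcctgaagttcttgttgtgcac
The first holds 6 CG pairs, the second 25 and the third 5, so the gene has both CG-rich and CG-poor starts. No methylation was measured, and which start was in use cannot be read from the probe.

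Ehmt1 (also called GLP) forms with Ehmt2 (G9a) the enzyme pair that makes mono- and dimethylated H3K9. Its brightest probe gave 75265 in wild type and 136409 in the knockout, a difference of 0.89 (scanner error 0.20). Its second probe gave 2330 and 2326, a difference of 0.03. The probes of Ehmt1 therefore disagree, with a gap of 0.86, the widest of any member. The brighter spot lies at array row 16. The top rows, which were set apart as in earlier work on these arrays, hold 4343 measured genes with a single spot, of which 6.65% were at least 1.5-fold higher and 5.53% as much lower, beside 5.37% and 4.23% in the remaining rows. In the top rows the 18 members with a single spot had a median of -0.09 (SD 0.31). The 39 such members in the remaining rows had a median of 0.07 (SD 0.26). The 18 are Ehmt1, Hdac1, Hdac3, Hdac8, Hdac10, Kat2a, Kat2b, Kat5, Kat6b, Kat7, Kdm1b, Kdm4b, Kdm8, Kmt5c, Setd1a, Setdb1, Sirt1 and Sirt3. Their brightest spots lie at rows 5 to 123. The part of array position in the difference was not tested. Without the top rows Ehmt1 stands at 0.03, since the second probe then represents it. The 250 bases before its listed start hold 26 CG pairs and are given for comparison with Hdac7, CG again in capitals.
Ehmt1, chr2:24919610-24919859, minus strand: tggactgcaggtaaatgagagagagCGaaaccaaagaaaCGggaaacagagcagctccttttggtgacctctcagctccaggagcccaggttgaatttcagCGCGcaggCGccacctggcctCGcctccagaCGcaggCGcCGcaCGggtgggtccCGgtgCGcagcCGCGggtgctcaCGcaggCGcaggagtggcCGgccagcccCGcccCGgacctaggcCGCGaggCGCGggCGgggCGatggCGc

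Of the 5 measured writers of H3K9 methylation, Ehmt1 included, 4 were above 0 and the median was 0.23. Suv39h2, which with Suv39h1 trimethylates H3K9 in heterochromatin, gave 85349 and 121523 (0.54, scanner error 0.20). Its other probe gave 27.2 and 15.4 and was not well above background on both arrays. The bright spot of Suv39h2 is at row 321, column 152, within an array corner where 3.42% of 556 measured genes were at least 1.5-fold higher and 4.86% as much lower. Without this corner no value of Suv39h2 remains. Ehmt2 gave 33695 and 38715 (0.23) and Suv39h1 gave 356 and 401 (0.20). Setdb1, which silences retroelements through H3K9 trimethylation, was the 1 member of the group below 0, with 1326 and 1159 (-0.16). Its only spot lies in the top rows named for Ehmt1. With spike-in scaling Ehmt1 (0.36) and Suv39h2 (0.01) were the members of the group still above 0.

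The genes grouped here as H3K4 methyltransferases, Kmt2e among them by its name, had a median of 0.08 over 6 measured genes, 5 of them above 0. Whether each of them methylates H3K4 was not measured. Kmt2d, which methylates enhancers together with Kmt2c, had 3 probes that all pointed up: the brightest gave 411 and 506 (0.33, scanner error 0.21), and the others gave 124 and 208 (0.78) and 36.2 and 50.1 (0.50, scanner error 0.37). The middle probe alone was past 1.5-fold, so the size depends on the probe. Kmt2e gave 2399 and 2877 (0.29, its other measured probe 0.18). Kmt2b (0.03), Kmt2c (0.07) and Setd7 (0.08; 1877 and 1949), a monomethyltransferase that also acts on proteins other than histones, lay within the scanner error. Setd1a, which trimethylates H3K4 at promoters, was lowest with 2578 and 2175 (-0.22), from a spot in the top rows named for Ehmt1. Kmt2a and Setd1b had no probe matched by accession and were not analysed here.

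H4K20 methyltransferases were the 1 group of writers with all members below 0. Kmt5a, which makes monomethylated H4K20 and is needed in the cell cycle, gave 2963 in wild type and 2183 in the knockout, a difference of -0.41 (scanner error 0.20). Its second probe gave 812 and 599, also -0.41, the closest pair of probes among the members. Kmt5c, which adds further methyl groups, gave 20400 and 15997 (-0.32), and its only spot lies in the top rows named for Ehmt1. For Kmt5b, with the same role, the brightest of 3 probes gave 230 and 207 (-0.12), and the others were at -0.31 and 0.07. With 3 genes in the group and no replicate, the shared sign is a description.

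Of the Polycomb enzymes that methylate H3K27, 1 of 2 lay within the scanner error. Ezh2, which is known to silence brakes on osteoclast formation such as Irf8, gave 629 and 611 (-0.01, scanner error 0.20). Its paralogue Ezh1, the form typical of cells that no longer divide, gave 12638 and 14936 (0.27), with further probes at 0.17 and 0.52. Ezhip, an inhibitor of this complex that its name brings among the members, was not well above background on either array. Setd2, the enzyme for trimethylated H3K36 whose mark Dnmt3a can recognise, gave 3286 and 3552 (0.14). Of the remaining SET domain proteins Setd4 was lowest (1233 and 1015, -0.25), followed by Setd6 (-0.22), a methyltransferase of the NF-kappaB subunit RelA. Setd5 (0.06) and Setd3 (0.17; 4798 and 5288), which methylates a histidine of actin, were above 0.

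Lysine acetyltransferases differed little, with a median of 0.01 and 7 of 8 within the scanner error. Kat8, the H4K16 acetyltransferase of the MSL and NSL complexes, was highest (4445 and 4771, 0.13). Kat5 (Tip60), which also acts in DNA repair, gave 6909 and 7288 (0.11, its other probe 0.15). Kat2b (PCAF) was the 1 gene outside the error, with 319 and 243 (-0.37, scanner error 0.21), from a spot in the same top rows as that of Ehmt1. Its close paralogue Kat2a (GCN5), the alternative catalytic subunit in the same complexes, gave 1475 and 1307 (-0.15, its other probe 0.02). Kat6a (0.01), Kat6b (0.09) and Kat7 (0.01), enzymes of the MYST family, were close to 0. For Kat14 the 3 probes ran from -0.36 to 0.09.

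**Figure D3:**
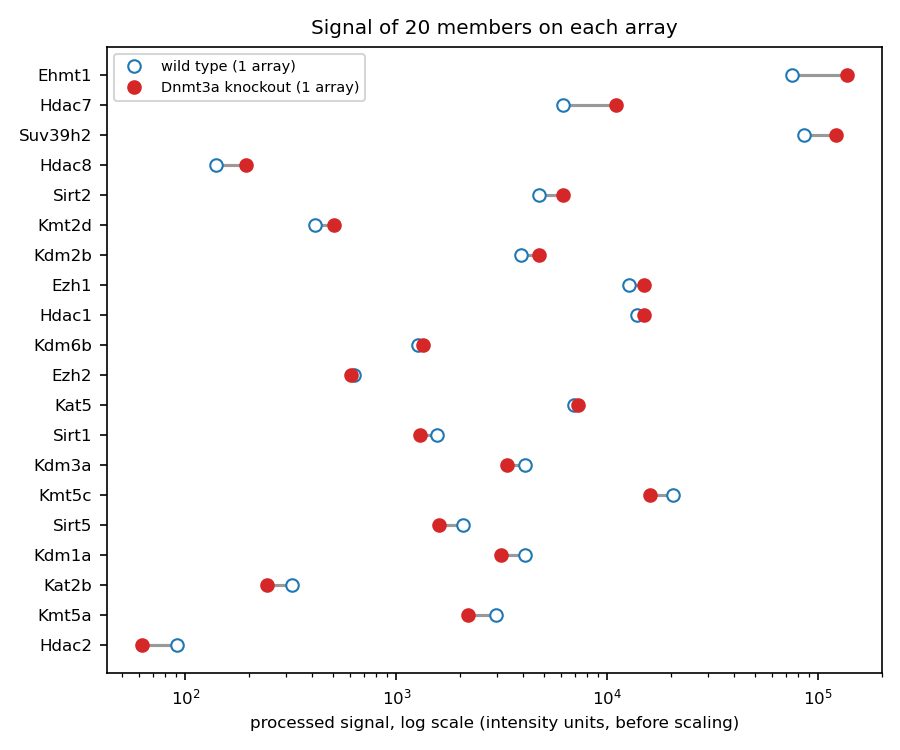
Processed signal on the wild type and the knockout array for 20 members, on a log axis and before scaling; each point is 1 array. Levels of different genes come from different probes and cannot be compared; for 1 gene the gap is widest for Ehmt1 and Hdac7 upward and for Hdac2 downward.

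Of the H3K4 demethylases 3 of 4 were below 0. Kdm1a (LSD1), the flavin-dependent demethylase of the CoREST complex, gave 4051 in wild type and 3115 in the knockout (-0.35, scanner error 0.20), and its spot also lies in the corner named for Suv39h2. Kdm5b gave 4816 and 4072 (-0.21), with a second probe at 0.01, while Kdm1b (-0.08) and Kdm5a (1619 and 1713, 0.11) were within the error. The demethylases of H3K9 and H3K36 had a median of 0.07 over 9 measured genes, with values on either side of 0. Kdm2b, which binds unmethylated CG islands, was highest with 3898 and 4738 (0.31), and its other probe was at 0.08. Kdm7a stood at 0.27, with a second probe at 0.43. Kdm3a, a demethylase of mono- and dimethylated H3K9, was lowest with 4052 and 3354 (-0.24), and Kdm8 followed (-0.21). Kdm4b, which acts on trimethylated H3K9, gave 2371 and 2464 (0.09), and Kdm4a, Kdm4c, Kdm2a and Kdm3b also stayed within the error. Kdm6b, the H3K27 demethylase induced by RANKL, gave 1263 and 1335 (0.11, scanner error 0.20).

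The class I deacetylases, nuclear enzymes of corepressor complexes, spread more widely. Hdac2 was the lowest of all members, and it was 1 of 3 members spotted 10 times on each array. In wild type its spots ran from 82.4 through a median of 91.5 to 105, and in the knockout from 53.3 through 61.2 to 69.1. All 10 knockout spots were below all 10 wild type spots, also after scaling. The mean difference was -0.52 (SD 0.21 over 10 spots of the same RNA, scanner error 0.25). The signal is dim, and after normexp background correction the difference was -0.28. Hdac8, on the X chromosome in RefSeq, gave 140 and 193 (0.50, scanner error 0.22), and its second probe gave 64.1 and 86.0 (0.45). Hdac3, the partner of the NCoR corepressors, gave 528 and 623 (0.27). Hdac1, which shares complexes with Hdac2, gave 13781 and 14846 (0.14, within the scanner error of 0.20), and its other probes were at 0.16 and 0.17. With spike-in scaling Hdac1 stood at -0.39. The stretch before the Hdac2 start is as rich in CG as that of Ehmt1, with 27 pairs.
Hdac2, chr10:36974294-36974543, plus strand: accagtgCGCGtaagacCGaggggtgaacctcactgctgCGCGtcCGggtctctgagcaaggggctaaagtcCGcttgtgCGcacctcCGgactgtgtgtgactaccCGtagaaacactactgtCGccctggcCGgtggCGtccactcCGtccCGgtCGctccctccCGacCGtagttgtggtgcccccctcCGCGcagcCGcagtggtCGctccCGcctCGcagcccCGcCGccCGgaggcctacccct

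Kat8 and Setd2 were the other members spotted 10 times, and they show what repeated spots resolve in brighter genes. For Kat8 the wild type spots ran from 4051 through 4508 to 4694 and the knockout spots from 4330 through 4857 to 5001, and the ranges overlapped. The mean difference of 0.13 had an SD of 0.07 over spots and was above 0 in 10 of 10. For Setd2 the spots ran from 3021 through 3309 to 3422 and from 3331 through 3558 to 3784, overlapping at the edge. The mean of 0.14 had an SD of 0.07 and 9 of 10 above 0. Both means are smaller than the scanner error of 0.20. That error averages the errors of single spots and was not made smaller for the number of spots. Over 259 probes with at least 8 usable spots the median SD was 0.07. Repeated spots share 1 RNA and say nothing of variation between cultures.

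In the remaining deacetylase classes Hdac6, the deacetylase of tubulin, gave 1900 and 1922 (0.05, its other probe -0.13). Hdac10, which deacetylates polyamines, gave 2083 and 1733 (-0.24, its other probe -0.13). Hdac11, like Ezhip and the demethylase Kdm4d, was not well above background on either array, and these 3 members have no fold.

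Among the sirtuins 5 of 7 were below 0, with a median of -0.10. Sirt2, which deacetylates tubulin in the cytoplasm, was highest with 4729 and 6147 (0.41, scanner error 0.20), followed by Sirt7 of the nucleolus, with 16496 and 19231 (0.25, its other probe 0.31). Sirt5, the mitochondrial enzyme that removes succinyl groups, was lowest with 2064 and 1586 (-0.35), and its spot lies in the same corner. Sirt6, which deacetylates H3K9, gave 2175 and 1802 (-0.24, its other probe -0.12). Sirt1, the nuclear deacetylase of many transcription factors, gave 1555 and 1298 (-0.23). Sirt3, the main mitochondrial deacetylase, gave 4871 and 4461 (-0.10), and Sirt4 stood at -0.07 (its other probe -0.32). Only Sirt2, Sirt5, Sirt6, Sirt1 and Sirt7 of this family differed by more than the scanner error, and none by 1.5-fold.

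Probes of 1 gene gave a check that arrays without replicates otherwise lack. Of the 60 members 20 had several probes above background on both arrays, and in 15 of the 20 all probes had the same sign (75%, beside 72.4% of 3384 such genes overall). The median gap between the highest and the lowest probe was 0.16 in members and 0.14 in all such genes. Hdac6, Kat14, Kat2a, Kdm5b and Kmt5b were the 5 whose probes had different signs. The other 40 measured members, Hdac7 among them, rest on 1 probe.

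**Figure D4:**
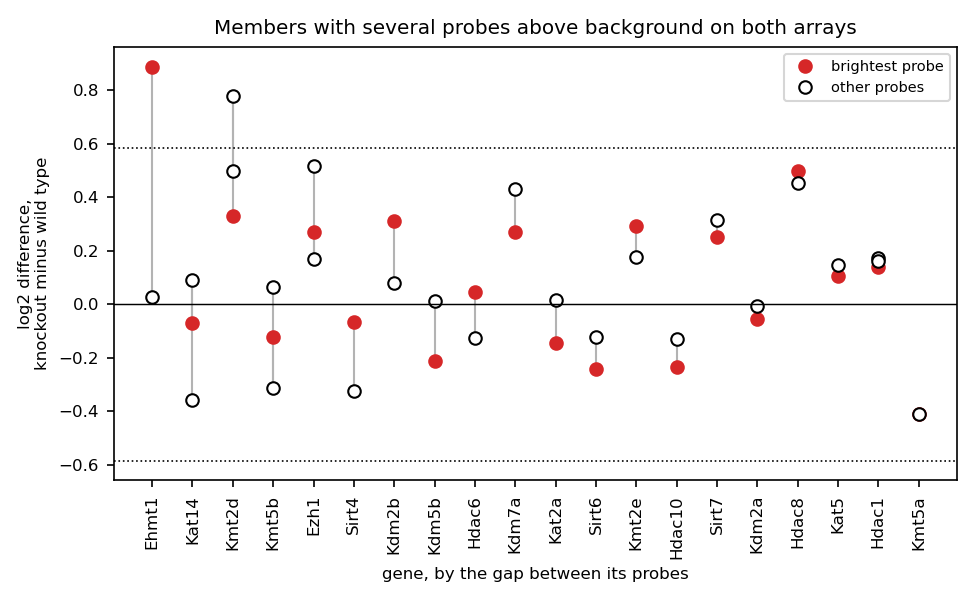
Log2 difference of every probe above background on both arrays for the 20 members that have several, ordered by the gap between probes; red is the brightest probe, dotted lines 1.5-fold. Ehmt1 has the widest gap (0.86) and the probes of Kmt5a coincide at -0.41.

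Of 110 partners and further enzymes of the same pathways 108 were measured, and their median difference was -0.00. At least 1.5-fold higher were 2 of them and as much lower also 2 (1.85% each, beside 5.82% and 4.69% of all measured genes). The 2 higher genes are both Mef2 factors, the transcription factors that class IIa deacetylases bind. Mef2a gave 32119 and 65130 (1.05, scanner error 0.20), but its other probe gave 300 and 332 (0.18). Mef2c was dim, with 47.2 and 70.2 (0.60, scanner error 0.29), and Mef2d stood at -0.06 (its other probe 0.12). Mitf, the osteoclast factor whose activity Hdac7 is known to repress, gave 9592 and 8292 (-0.18, its other probe -0.24). These values are of Mitf RNA, and the activity of the protein was not measured. Of the 12 genes on this list 7 were below 0, with Camk2d (-0.25) lowest.

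Corepressor subunits had a median of 0.09 over 20 genes. Mta2, a subunit of the NuRD complex with Hdac1 and Hdac2, gave 6737 and 4193 (-0.65), and Mier1 was highest (0.52). Among further methyltransferases 11 of 15 were below 0, with a median of -0.17. Smyd3 counts as above 0 by its brightest probe (182 and 187, 0.06). Its other probes, also dim, gave 154 and 102 (-0.56) and 133 and 54.3 (-1.26), so its sign depends on the probe. Nsd2, a writer of dimethylated H3K36, gave 1119 and 708 (-0.63), with 3 more probes from -0.55 to -0.35. Its paralogue Nsd3 went the other way, with 1695 and 2400 (0.53) and further probes at 0.67 and 0.10. Both brightest spots lie in the corner named above; the Nsd2 probes outside it gave -0.55 and -0.35, and those of Nsd3 gave 0.67 and 0.10.

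The partners of Ezh1 and Ezh2 in Polycomb complex 2 ran from Aebp2 (-0.50, its other probe -0.17) to Phf19 (0.27), with a median of -0.06 over 9. The COMPASS partners of the H3K4 methyltransferases were the most even of the partner lists (SD 0.06), from Wdr5 (-0.09) to Men1 (0.08). All 8 lay within the scanner error, as did the 6 measured Jumonji proteins and the 10 bromodomain readers. Acetyltransferases outside the Kat names and their partners ran from Tada2b (-0.25) to Ncoa3 (0.56; 11454 and 16539), median 0.03 over 20. Jumonji proteins ran from Riox2 (-0.17) to Jmjd1c (0.18) over 6 measured genes. Heterochromatin proteins and readers of H3K9 methylation ran from Uhrf1 (-0.32), a reader that also brings Dnmt1 to replicated DNA, to Atf7ip (0.14), a cofactor of Setdb1. Bromodomain readers ran from Brd3 (-0.16) to the dim Brd8 (69.5 and 76.3, 0.17, scanner error 0.25). The other Brd3 probes were at 0.32 and 0.13, so its low place depends on the probe.

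The medians of the osteoclast, macrophage, neutrophil and stromal markers lay more than 0.4 from 0, whereas 53 of the 60 enzymes lay within 0.4. Those of the lymphocyte lists were closer to 0. All 10 osteoclast markers were well above background on both arrays, and 10 of 10 were below 0, with a median of -0.57 and a summed scaled signal of 1970 in wild type and 1720 in the knockout. All 7 measured macrophage markers were above 0, with a median of 0.79 (sums 635 and 741). All 8 neutrophil markers were above 0, with a median of 0.47 (246 and 292), and 6 of 7 measured stromal markers were below 0, with a median of -0.87 (126 and 82.2). The stromal factor Runx2 was not well above background. Some of these counted markers lay within the scanner error of 0.20. They were Acp5 (-0.0005) and Ctsk (-0.18) for osteoclasts, Csf1r (0.10) for macrophages, Elane (0.15) and Csf3r (0.02) for neutrophils, and Lepr (0.16), the stromal marker above 0. Of 4 measured markers each, 3 of the B lymphocyte and 3 of the T lymphocyte list were above 0, with medians of 0.15 and 0.20. The sums in wild type and knockout were 1.35 and 1.31 for the B lymphocyte list and 9.65 and 8.34 for the T lymphocyte list. The part of cell makeup in the values of Hdac7, Ehmt1 or any other member was not tested. In such bulk RNA, fewer cells of a type and less RNA per cell cannot be told apart.

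Sequence around the starts gave a feature that the choice of members did not use. RefSeq promoters (250 bases before to 50 after a start) were found for 52 of the 63 members, with 74 starts, some of them overlapping. Of the 52 members 49 were measured. The 74 also hold the starts of Ezhip, Hdac11 and Kdm4d, which were not, so they are not fully like the starts of measured genes set beside them. The median number of CG pairs was 22.5 in the 74, beside 19 in 13681 starts of measured genes and 7 in all 32851 starts. Fewer than 10 CG pairs were found in 12 of the 74 (16.2%), beside 27.2% of the starts of measured genes. These CG-poor starts belong to Hdac7 and Hdac9 (2 each), Ezhip, Hdac8, Kat2b, Kat8, Kdm3a, Kdm4c, Kmt5a and Setd5. The GC box GGGCGG, which itself holds a CG, was in 63.5% of member starts on either strand, beside 58.5%. TATAAA was in 2 starts (2.70%, beside 8.40%), CCAAT in 41.9% (beside 37.6%) and CACGTG in 8.11% (beside 9.60%). Such matches describe letters only and show no binding.

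**Figure D5:**
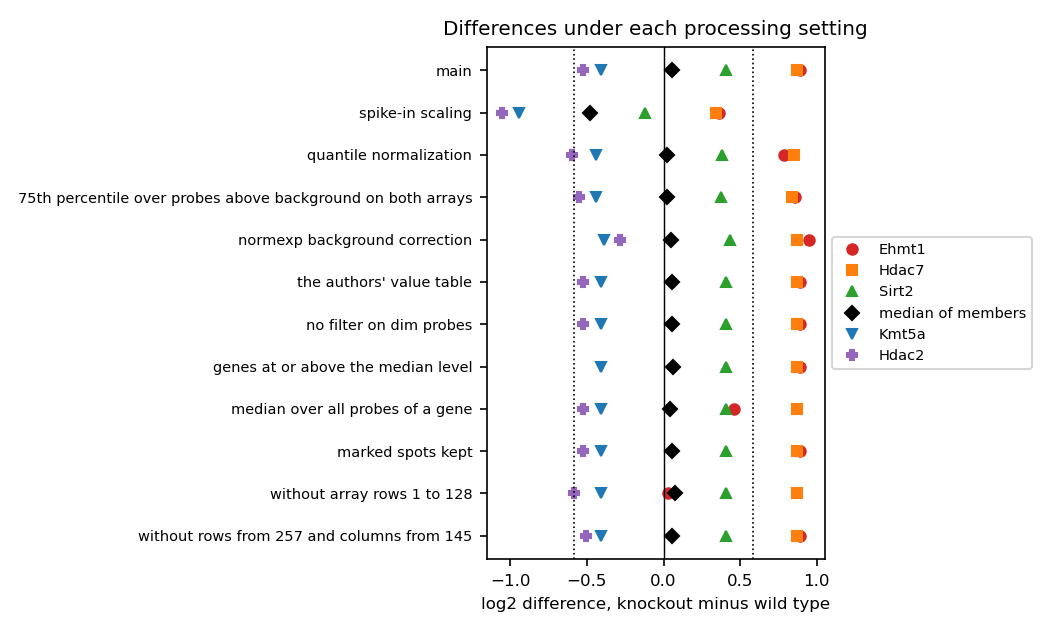
Log2 difference of 5 members and the median of all members in each processing setting (main is the one reported; Hdac2 is below the median level and has no point there); dotted lines mark 1.5-fold. Hdac7 stays above 0 throughout, Ehmt1 drops to 0.03 without the top array rows, and spike-in scaling moves every point by 0.53 to the left.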

How the data were processed

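RNA of 1 wild type and 1 Dnmt3a knockout osteoclast culture was measured on 2 arrays of 1 slide, scanned together. Per the file headers, the deposited intensity is background-subtracted and detrended in each array (Agilent Feature Extraction 10.10.1.1, GE1_1010_Sep10, probe positions on mm9) and not normalized between arrays; the submitters' processing notes name version 9.1. The deposited value table is the same intensity times 1.55 (wild type) and 1.54 (knockout), on a linear scale and uncentred (medians 59.6 and 66.5); how the factors were chosen is unknown.

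Computed here (Python 3.11.15, pandas 2.3.3; limma 3.58.1 in R 4.3.3 for normexp) was log2 of the processed signal minus each array's 75th percentile. Spots marked uneven or outlying on either array were left out (157 and 172), and spots of a probe were averaged. Accessions without versions named 27224 of 55649 probes through RefSeq (GRCm38.p6). Each gene was represented by its probe with the highest mean signal, and counted as measured when that probe was well above background on both. The number of arrays limits the precision. The calculation was tested on simulated data with planted changes of 2-fold or more, larger than the difference of any measured member. Smaller changes were not simulated. The members and lists were chosen with earlier results of these data known. Named with values were members past 1.5-fold, the highest and lowest of each group, members whose probes differ by more than 1 log2 unit (none did), a set list of well-known enzymes, and the highest, lowest and 1.5-fold changed partners. Other genes were named after their values were seen, to complete a group.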

Additional observations from a re-analysis of the deposited data

How the results depend on the processing

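Tried were 11 alternatives. Scaling to the spike-in probes moved all 60 differences beyond the scanner error and gave a median of -0.48, 0 members at least 1.5-fold higher, 23 as much lower (beside 0.482% and 39.9% of all measured genes) and 1 member, Hdac2 (-1.05), at least 2-fold lower; the construction of this setting lowers every difference by 0.53. At least 1.5-fold higher were 4 members with no filter on dim probes, which adds Ezhip and Hdac11, both below background (6.35% of members, beside 12.4% of all genes). This count was 1 (Hdac7) with the median over all probes of a gene, where Ehmt1 stood at 0.46 (1.67%, beside 5.77%), and 1 without the top array rows, where Ehmt1 stood at 0.03 (2.13% of 47 members, beside 5.48%). Quantile normalization put 1 member, Hdac2, at least 1.5-fold lower (1.67%, beside 5.94%). Outside spike-in scaling and these Ehmt1 values, no difference of a member moved by more than its scanner error. Normexp was run on the median spot signal in place of the mean. Dim signal limits Hdac2 and the 3 members below background most. No paired analysis was possible because each genotype has 1 array, and for the same reason no replicate could be left out.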
